A study of Mus musculus with 12 samples.

Results

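The 10 genes described here were the immediate-early and AP-1 transcription factors Fos, Fosb, Fosl1, Fosl2, Jun, Junb, Jund, Egr1, Atf3 and Myc, taken by gene symbol from the 15002 genes of the deposited tables. Their RNA was measured in 4 groups of 3 libraries of the IEC4.1 line, which comes from mouse intestinal epithelium. The siR_Ctrl cells had been transfected with a scrambled siRNA and are labelled WT, and the siR_Nostrill cells had been transfected with 3 pooled siRNAs that target Nostrill, a lncRNA, and are labelled as a knockdown (the labels spell it Nostril). The siR_Ctrl + IFN-γ and siR_Nostrill + IFN-γ cells received the same siRNAs and then IFN-γ, at 1 ng/ml for 4 h in the study's methods, whereas the labels give 24 h for every library. All groups were therefore transfected cells of a single line, the knockdown was transient, and no untransfected group was used. Nostrill itself was not analysed here, so its level did not check the siRNA labels.

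Jun and Fos proteins pair through leucine zippers to form AP-1, a transcription factor that binds a short DNA element, and Fos proteins need a Jun partner to do so. Atf3 belongs to the same basic leucine zipper class, Egr1 is a zinc finger factor, and Myc is a helix-loop-helix leucine zipper factor that pairs with Max. Many of these genes are switched on within minutes of growth factor, cytokine or stress signals through MAP kinases, and the RNA of several of them, Fos above all, is short-lived. In intestinal epithelium AP-1 and Myc are known for their part in crypt cell growth and wound repair, and Atf3 for its induction by stress and inflammatory signals.

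Promoter windows were read from RefSeq for GRCm38.p6, from 250 bases before to 50 bases after each annotated start, and 7 of the 10 genes had one. Those of Atf3, Jun, Junb and Fosl2 are shown because these were the genes called in a comparison of IFN-γ below. The Atf3 window lay at chr1:191183284-191183583 on the minus strand, that of Jun at chr4:95052173-95052472 on the minus strand, that of Junb at chr8:84978699-84978998 on the minus strand and that of Fosl2 at chr5:32136222-32136521 on the plus strand. Each window covers the sequence upstream of the gene and the first bases of its first exon. Capitals mark every match, on either strand, to one of 9 motifs named below, and the 5′ end is at the left.
Atf3: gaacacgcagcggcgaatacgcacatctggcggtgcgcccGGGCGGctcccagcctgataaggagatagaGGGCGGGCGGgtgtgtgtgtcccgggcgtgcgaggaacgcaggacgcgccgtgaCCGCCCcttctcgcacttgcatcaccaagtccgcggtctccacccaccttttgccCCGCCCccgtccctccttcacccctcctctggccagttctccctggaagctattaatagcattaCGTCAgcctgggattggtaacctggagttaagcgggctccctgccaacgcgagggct
Jun: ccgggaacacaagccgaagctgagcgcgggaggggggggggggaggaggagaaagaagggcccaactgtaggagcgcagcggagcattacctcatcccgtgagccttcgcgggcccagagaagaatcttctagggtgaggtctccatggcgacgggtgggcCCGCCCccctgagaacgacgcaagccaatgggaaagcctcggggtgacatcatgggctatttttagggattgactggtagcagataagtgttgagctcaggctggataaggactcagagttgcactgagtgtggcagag
Junb: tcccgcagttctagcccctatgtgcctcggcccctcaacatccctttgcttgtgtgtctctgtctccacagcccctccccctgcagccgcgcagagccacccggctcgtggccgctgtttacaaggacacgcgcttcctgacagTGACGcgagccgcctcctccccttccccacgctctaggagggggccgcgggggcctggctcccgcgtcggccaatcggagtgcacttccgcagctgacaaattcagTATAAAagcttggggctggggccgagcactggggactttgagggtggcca
Fosl2: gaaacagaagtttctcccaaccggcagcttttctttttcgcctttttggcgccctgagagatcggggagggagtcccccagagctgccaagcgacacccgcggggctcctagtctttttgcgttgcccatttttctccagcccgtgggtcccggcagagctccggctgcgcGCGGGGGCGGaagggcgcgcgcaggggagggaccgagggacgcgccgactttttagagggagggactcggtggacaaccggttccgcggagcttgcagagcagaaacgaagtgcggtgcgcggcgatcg

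The motifs searched on both strands were the AP-1 site TGANTCA, the cAMP response element TGACGTCA, its half-site TGACG, the interferon gamma-activated site (GAS) TTCNNNGAA, the CArG box bound by serum response factor, the Egr site GCGNGGGCG, the E-box CACGTG that Myc and Max bind, the TATA box TATAAA and the GC box GGGCGG. The half-site lies inside the full cAMP response element, and the Egr site can overlap a GC box. None of the 7 windows held the GAS letters, which 8.30% of all 32851 RefSeq windows of 300 bases held. The AP-1 site (7.81% of all windows), the full cAMP response element (1.79%), the CArG box (1.63%) and the E-box (7.15%) were likewise not found in the 7 windows. The half-site was found in 4 of 7 (Atf3, Fos, Fosb and Junb), against 20.8% of all windows, and the GC box in 5 of 7 (Atf3, Fos, Fosb, Fosl2 and Jun), against 35.7%. The TATA box was found in Fos and Junb (13.6% of all windows), and the Egr site in Fosb and Fosl2 (5.55%), where it overlapped a GC box. The TATA letters began 33 bases before the annotated start in Fos. In Junb they began at the annotated start itself, so not upstream of it. In the Atf3 window the half-site began 7 bases before the start on the minus strand, and in the Junb window it began 106 bases before the start on the plus strand. The absence of a match says only that these letters were not in the windows, which leave out enhancers and more distant promoter sequence.

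The libraries held 17824306 to 19093204 reads on genes (median 18153496), and all 10 genes passed the filter on low counts. Irf1, an interferon-induced transcription factor used as a check of the treatment, rose with IFN-γ with each siRNA (50.9 ± 4.05 to 578 ± 15.6 FPKM in siR_Ctrl and 57.3 ± 3.21 to 543 ± 6.96 FPKM in siR_Nostrill cells, edgeR, adjusted p under 0.05). The cells were checked against the labelled epithelial type. Of 10 epithelial markers 6 were listed, Krt8, Krt18, Vil1 and Cdx2 stood at or near 0 (at most 0.28 FPKM in any library), and Krt19 (0.91 to 2.76 FPKM) and Tjp1 (4.80 to 16.0 FPKM) were detected. Epcam, Cdh1, Cldn4 and Cldn7 were looked up by symbol and were not among the genes listed. Of 8 fibroblast markers 6 had a mean over 1 FPKM in each group, among them Col1a1 at 176 to 315 FPKM, and the summed level of the 8 ranged from 454 to 674 FPKM in siR_Ctrl, 380.1 to 597 in siR_Ctrl + IFN-γ, 422 to 605 in siR_Nostrill and 438 to 507 in siR_Nostrill + IFN-γ cells. The fibroblast ranges overlap in every pair of groups. The epithelial and fibroblast markers thus did not bear out the epithelial label, which is kept here as given. The 4 muscle markers, of which Acta2 (117 to 174 FPKM) made up nearly the whole sum and Myh11, Des and Cnn1 reached at most 0.09, 1.41 and 1.16 FPKM, summed to 146 to 176 FPKM in siR_Ctrl, 122 to 134 in siR_Ctrl + IFN-γ, 125 to 131 in siR_Nostrill and 118 to 143 in siR_Nostrill + IFN-γ cells, so that siR_Ctrl stood above the other 3 groups without overlap, and the part of this difference in the comparisons with siR_Ctrl was not tested. Immune markers (at most 0.68 FPKM in sum) and endothelial markers (at most 0.18) were near 0. Since the RNA is of bulk cultures, fewer cells expressing a gene and less RNA per cell cannot be told apart. The gene-length dependence of the counts also differed between libraries: within groups, the deviation of a gene from its group mean correlated with gene length with a Spearman coefficient of 0.192 to 0.782 in absolute value, across genes, which are not independent replicates.

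In siR_Ctrl cells without IFN-γ the 10 genes spanned a wide range of levels. FPKM, which divides reads by transcript length and by reads mapped, was highest for Junb (98.8 ± 11.01 FPKM, SD, n = 3) and Fosl1 (85.6 ± 10.1 FPKM), whose libraries overlapped. Jund followed at 69.2 ± 5.47 FPKM and Jun at 43.1 ± 3.57 FPKM, each separate from the gene above it. Jun, Myc (37.8 ± 4.23 FPKM), Egr1 (31.0 ± 6.07 FPKM) and Fosl2 (24.3 ± 6.73 FPKM) each overlapped their neighbour in this order. Atf3 (5.20 ± 0.423 FPKM), Fos (1.81 ± 0.182 FPKM) and Fosb (0.237 ± 0.0802 FPKM) formed the low end, with no overlap between neighbours. The canonical immediate-early genes Fos and Fosb were thus the lowest of the 10, at 50 to 91 reads per library for Fos and 10 to 27 for Fosb, and their values carry the largest counting error.

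**Figure D1:**
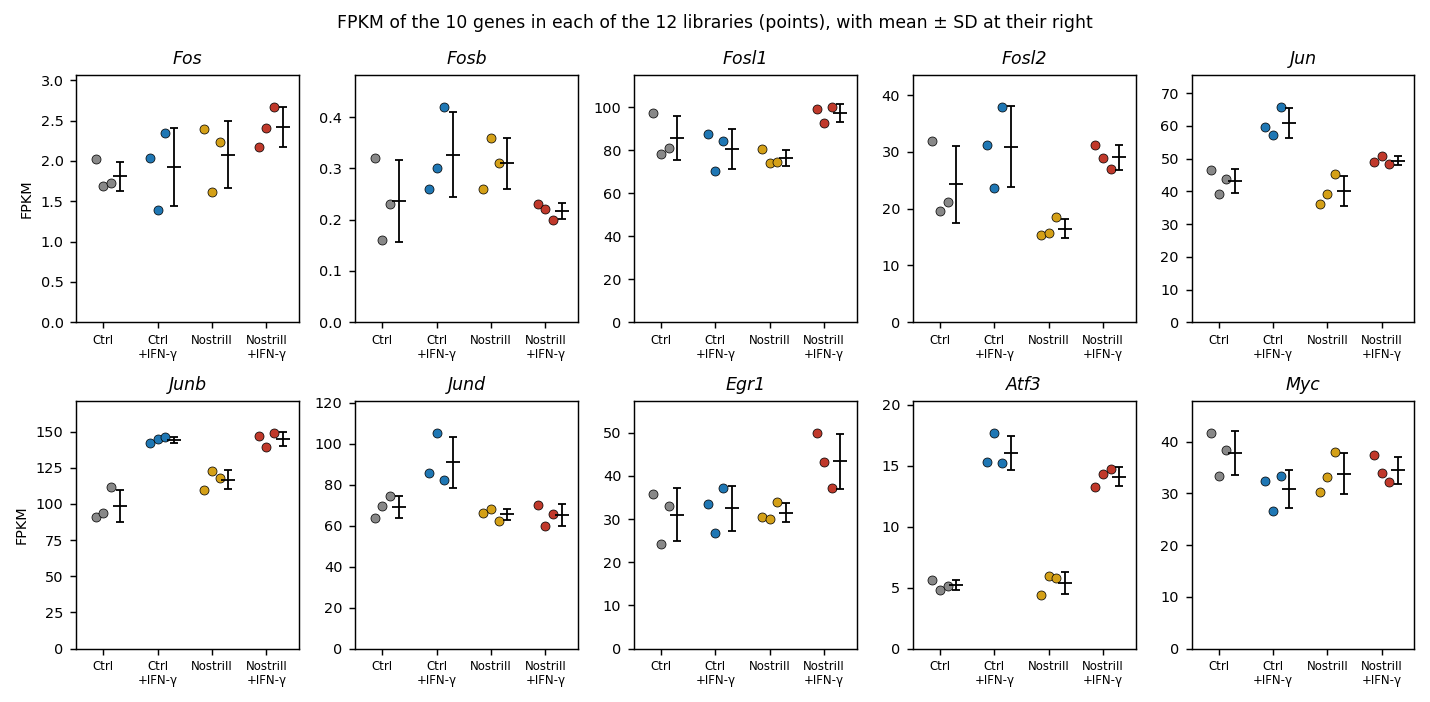
FPKM (vertical axes, each starting at 0) of each of the 10 genes in the 12 libraries, with 1 point per library, 4 groups per panel and the mean ± SD to the right of the points. The Atf3 points with IFN-γ (13.2 to 17.7 FPKM) lie above all points without it (4.37 to 5.96 FPKM), whereas those of Fos and Myc overlap between the groups with and without IFN-γ.

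The first comparison asks how these genes responded to IFN-γ in cells with the control siRNA. Of the 10 genes 3 rose, namely Atf3, Junb and Jun, none fell, and 7 did not pass the test (edgeR, adjusted p under 0.05), while 5.45% of the 11900 genes tested were called. The median log2 fold change of the 10 was 0.44, beside -0.01 for all genes tested. Atf3, a stress-induced repressor and activator of the CREB family, had 5.65, 4.81 and 5.15 FPKM without IFN-γ and 15.3, 17.7 and 15.3 FPKM with it. All 3 IFN-γ libraries lay above all 3 others, by a fitted 3.25-fold (log2 fold change 1.70, SE 0.14, adjusted p = 7.0e-06, edgeR). Junb, a Jun protein that often restrains growth-promoting Jun activity, had 91.2, 93.7 and 111 FPKM without IFN-γ and 142, 145 and 146 FPKM with it. The groups did not overlap, and the fitted increase was 1.53-fold (log2 fold change 0.62, SE 0.10, adjusted p = 0.0022). Jun, the founding partner of Fos in AP-1, had 46.4, 39.3 and 43.7 FPKM without IFN-γ and 59.6, 57.1 and 65.8 FPKM with it. It too was higher in each treated library (1.48-fold, log2 fold change 0.57, SE 0.08, adjusted p = 0.00059). The groups did not overlap for 4 of the 10 genes (Atf3, Jun, Junb and Jund), beside 18.3% of all genes. The calls of Atf3, Junb and Jun were kept whichever of the 12 libraries was left out, and that of Junb was lost when only these 2 groups were fitted (adjusted p = 0.0525).

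Jund, the Jun protein that most cell types express constitutively, had 63.6, 69.5 and 74.5 FPKM without IFN-γ and 85.8, 105 and 82.1 FPKM with it. Its groups did not overlap, but the difference did not pass the test (log2 fold change 0.47, SE 0.14, adjusted p = 0.0870), and it was called by DESeq2 (adjusted p = 0.0294), with a length trend removed from each library (log2 fold change 0.49, adjusted p = 0.0176) and without siR_Ctrl + IFN-γ replicate 3 (adjusted p = 0.0451). The Jund entry of the tables is listed on an alternate-locus scaffold. Fosl2, a Fos protein lacking the strong activation domain of Fos, had 32.0, 19.6 and 21.2 FPKM without and 31.1, 23.6 and 37.9 FPKM with IFN-γ. The groups overlapped, and siR_Ctrl replicate 1 stood as high as the treated libraries (log2 fold change 0.41, SE 0.16, adjusted p = 0.241), and without that library Fosl2 was called (log2 fold change 0.63, adjusted p = 0.0165). Longer genes had lower log2 fold changes in this comparison (Spearman coefficient -0.422 across genes), and with the length trend removed Fosl2 was called (log2 fold change 0.54, adjusted p = 5.9e-06). The length fit called 5 of the 10 genes and 11.1% of all genes, and DESeq2 4 of the 10 and 6.33%. The other 5 genes all overlapped between the groups. Fos (log2 fold change 0.15, SE 0.19), Egr1 (0.13, SE 0.13) and Fosl1 (-0.02, SE 0.09) differed by about 1 SE or less. The value of Fosb was 0.55 with an SE of 0.26, at 10 to 27 reads per library. Myc was the only one of the 10 besides Fosl1 with a negative value (log2 fold change -0.23, SE 0.09, adjusted p = 0.246, edgeR).

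The same comparison was made in siR_Nostrill cells. Here 2 of the 10 genes rose, Atf3 and Fosl2, none fell, and 8 did not pass the test, beside 6.78% of all genes called. The median log2 fold change of the 10 was 0.28, beside 0.00 for all genes tested. Atf3 had 4.37, 5.96 and 5.79 FPKM without IFN-γ and 13.2, 14.4 and 14.7 FPKM with it. As in siR_Ctrl cells, the groups were well apart (2.59-fold, log2 fold change 1.37, SE 0.14, adjusted p = 5.0e-05). Fosl2 had 15.3, 15.7 and 18.5 FPKM without and 31.3, 28.9 and 26.9 FPKM with IFN-γ. These groups did not overlap (1.74-fold, log2 fold change 0.80, SE 0.16, adjusted p = 0.0122). The call was lost, however, without siR_Nostrill replicate 1, siR_Nostrill replicate 2 or siR_Nostrill + IFN-γ replicate 1 (highest adjusted p = 0.0634). Over all 12 fits with a library left out, whether the call was kept or lost, the log2 fold change of Fosl2 ranged from 0.75 to 0.85. The number of the 10 genes called was 1 without siR_Nostrill replicate 1, siR_Nostrill replicate 2 or siR_Nostrill + IFN-γ replicate 1, where 608, 491 and 538 of all genes were called, and 5 without siR_Ctrl replicate 1, where 1138 were, against 807 with all libraries. Fosl2 has the longest transcript of the 10 (effective length 5628 bases), and longer genes had higher log2 fold changes in this comparison (Spearman coefficient 0.480 across genes). With a length trend removed from each library its log2 fold change was 0.60 and its adjusted p 2.1e-06, beside 0.54 in siR_Ctrl cells.

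In siR_Nostrill cells the groups did not overlap for 7 of the 10 genes, beside 34.9% of all genes, and of these Jun, Fosl1, Egr1, Junb and Fosb did not pass the test. Jun had 36.3, 39.1 and 45.2 FPKM without and 48.9, 50.9 and 48.3 FPKM with IFN-γ (log2 fold change 0.28, SE 0.08, adjusted p = 0.0543). Fosl1, the Fos protein linked to cell migration and wound edges, had 80.6, 74.2 and 74.4 FPKM without and 99.1, 92.6 and 100.2 FPKM with it (0.33, SE 0.09, adjusted p = 0.0523). Both stood higher in each treated library, and both missed the threshold narrowly. Egr1, an immediate-early factor of the MAP kinase and serum response pathway, had 30.4, 30.0 and 34.0 FPKM without and 49.9, 43.1 and 37.2 FPKM with IFN-γ (0.44, SE 0.13, adjusted p = 0.0719). Junb had 110, 123 and 118 FPKM without and 147, 140 and 149 FPKM with it (0.29, SE 0.10, adjusted p = 0.111). Of these, Jun, Fosl1 and Egr1 were called by DESeq2, and all 4 when the length trend was removed or when only these 2 groups were fitted. Junb was also called by limma on log2 FPKM (adjusted p = 0.0435 to 0.0447 over 3 settings) and Fosl1 with the replicate block (adjusted p = 0.0349). DESeq2 called 5 of the 10 genes and 10.5% of all genes, and the length fit 6 of the 10 and 19%. The fit of these 2 groups alone called 6 of the 10 and 1997 of all genes. The replicate block called 3 of the 10 and 943 of all genes, and limma 3 of the 10 and 867 to 883 of all genes. Without siR_Ctrl replicate 1 Jun, Fosl1 and Egr1 were also called, and leaving out 1 other library had the same effect for each (siR_Nostrill replicate 3 for Jun, siR_Ctrl + IFN-γ replicate 2 for Fosl1 and siR_Ctrl replicate 2 for Egr1). Jund (log2 fold change -0.03, SE 0.14), Myc (0.01, SE 0.09) and Fos (0.20, SE 0.18) differed by at most about 1 SE. Fosb was lower in each treated library (0.23, 0.22 and 0.20 against 0.26, 0.36 and 0.31 FPKM), at 13 to 22 reads per library and without passing the test (adjusted p = 0.281).

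**Figure D2:**
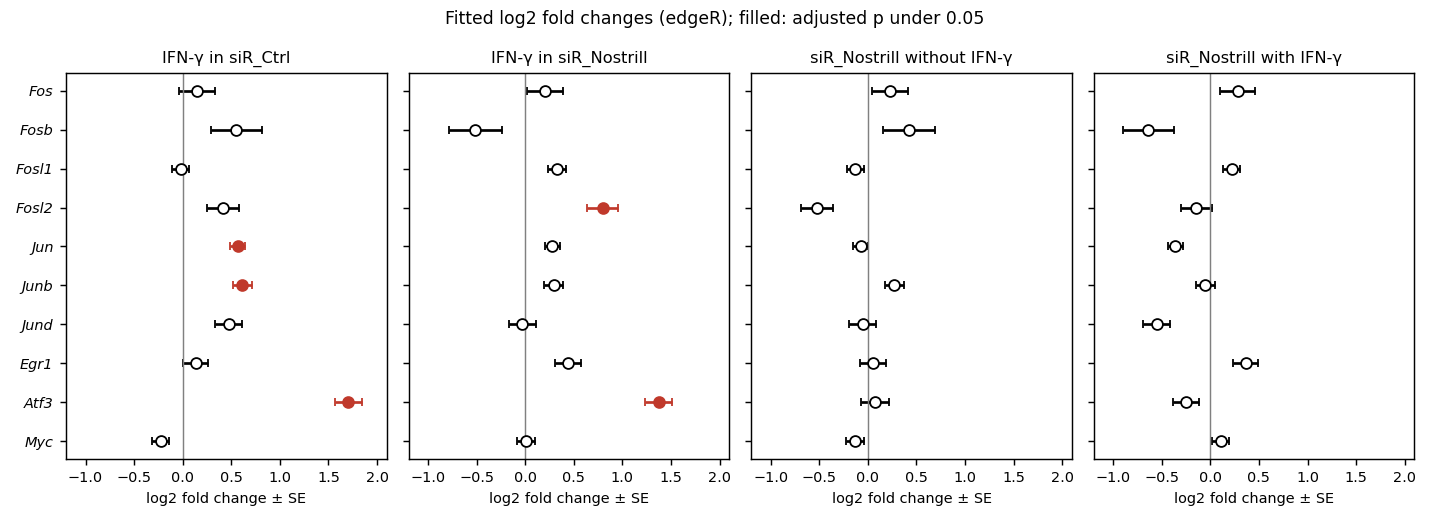
Fitted log2 fold change (horizontal axis) ± SE of each of the 10 genes in the 4 comparisons of 2 groups, with filled red points for an adjusted p under 0.05 (edgeR). Atf3 stands apart at 1.70 and 1.37 with IFN-γ, and no point is filled in the siRNA comparisons.

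With IFN-γ averaged over both siRNAs, 4 of the 10 genes rose, beside 9.21% of all genes. These were Atf3 (log2 fold change 1.54, SE 0.10), Fosl2 (0.60, SE 0.12, adjusted p = 0.0051), Junb (0.45, SE 0.07, adjusted p = 0.0010) and Jun (0.42, SE 0.05, adjusted p = 0.00026). All 4 kept their call with each library left out, and a 5th, Egr1, was added without siR_Ctrl replicate 1 (adjusted p = 0.0433) and with the length trend removed (adjusted p = 0.0137, a fit that called 20% of all genes). Fos, Fosb, Fosl1, Jund, Egr1 and Myc did not pass the test.

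**Figure D3:**
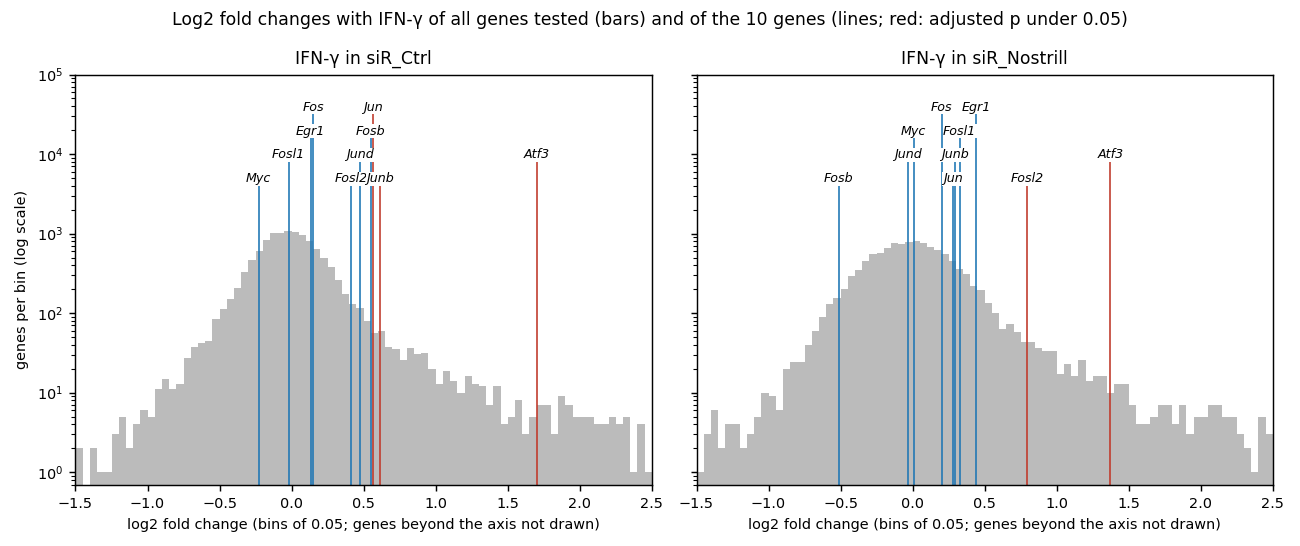
Number of genes per bin of log2 fold change (grey bars, log scale, bins 0.05 wide) for IFN-γ in siR_Ctrl and in siR_Nostrill cells, with the 10 genes drawn as lines, red where the adjusted p was under 0.05. In siR_Ctrl cells Atf3 lies at percentile 98.4 of all genes, Junb at 95.04 and Jun at 94.6, and in siR_Nostrill cells Atf3 lies at 98.1 and Fosl2 at 95.8.

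Next, siR_Nostrill cells were compared with siR_Ctrl cells without IFN-γ. None of the 10 genes passed the test (edgeR), beside 0.218% of all genes called, and 2 of the 10, Fosl2 and Junb, had an unadjusted p under 0.05, beside 13.8% of all genes. DESeq2 called 0 of the 9 to which it gave an adjusted p (it gave none to Fosb), beside 2.56% of all genes. Fosl2 was lower in each siR_Nostrill library (15.3, 15.7 and 18.5 FPKM against 32.0, 19.6 and 21.2), with a log2 fold change of -0.52 (SE 0.16, adjusted p = 0.246). With each library left out its value ranged from -0.63 to -0.31, without a call. Fosl2 was the 1 gene of the 10 without overlap between the groups, beside 17.1% of all genes. In this comparison longer genes had lower log2 fold changes (Spearman coefficient -0.653 across genes). Removing the length trend brought the Fosl2 value to -0.26, at which it was called lower (adjusted p = 0.0199), the only one of the 10 that was, beside 3.43% of all genes in that fit. Junb was 117 ± 6.75 FPKM against 98.8 ± 11.01 FPKM, with overlapping libraries (0.27, SE 0.10, adjusted p = 0.2998), and its value was 0.14 with the length trend removed. The other 8 genes had log2 fold changes from -0.13 (Myc) to 0.42 (Fosb). With the length trend removed that of Fosl1 moved from -0.13 to -0.30 and that of Fos from 0.23 to 0.14, both without a call. Fosb was at 0.08 with limma on log2(FPKM + 1), also without a call, where the added 1 exceeds its FPKM in every library. Atf3 (0.08, SE 0.14), Egr1 (0.05, SE 0.13), Jund (-0.05, SE 0.14) and Jun (-0.07, SE 0.08) were each within 1 SE of 0.

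With IFN-γ, again none of the 10 genes differed between siR_Nostrill and siR_Ctrl cells by the test (edgeR), beside 0.429% of all genes called. Here 5 of the 10 had an unadjusted p under 0.05 (Jun, Jund, Egr1, Fosl1 and Fosb), beside 14.5% of all genes, and DESeq2, which gave no adjusted p to Fosb, called 2 of the other 9 and 5.46% of all genes. The groups did not overlap for 6 of the 10, beside 22.9% of all genes. The 2 that DESeq2 called were Jun and Jund, both lower in each siR_Nostrill + IFN-γ library. Jun had 48.9, 50.9 and 48.3 FPKM against 59.6, 57.1 and 65.8 FPKM in siR_Ctrl + IFN-γ cells, with a log2 fold change of -0.36 (SE 0.08, adjusted p = 0.0651 by edgeR and 0.00017 by DESeq2). Jund had 70.2, 59.8 and 65.6 FPKM against 85.8, 105 and 82.1 FPKM, a log2 fold change of -0.55 (SE 0.14, adjusted p = 0.0976 by edgeR and 0.0081 by DESeq2). Neither was called by edgeR with any library left out (lowest adjusted p = 0.0567 for Jun and 0.0655 for Jund), and with the length trend removed both were called (adjusted p = 0.0018 and 0.0108). Junb, the third Jun protein, stood at 145 ± 4.85 FPKM against 144 ± 2.15 FPKM (log2 fold change -0.05, SE 0.10). Egr1 was higher in each siR_Nostrill + IFN-γ library (49.9, 43.1 and 37.2 FPKM against 33.4, 26.8 and 37.1 FPKM), with the lowest of one group and the highest of the other nearly equal (0.36, SE 0.13, adjusted p = 0.218). With the length trend removed Egr1 was called higher (0.35, adjusted p = 0.0478) and Fosl2 lower (-0.20, adjusted p = 0.0279), which made 4 of the 10 with Jun and Jund, beside 12.9% of all genes in that fit, and the Fosl2 value without that step was -0.14 (SE 0.16, adjusted p = 0.744). Fosl1 also stood higher (97.3 ± 4.08 FPKM against 80.6 ± 9.25 FPKM), without passing the test (0.22, SE 0.09, adjusted p = 0.288). Atf3 was 14.1 ± 0.789 FPKM against 16.1 ± 1.39 FPKM, and its libraries did not overlap (-0.25, SE 0.13, adjusted p = 0.411). Averaged over both states, the siRNA comparison gave 0 of the 10 genes by edgeR, beside 2.16% of all genes, with Jun closest (log2 fold change -0.22, SE 0.05, adjusted p = 0.0641), and DESeq2 called 1 of the 10, Jun, and 6.65% of all genes. With the length trend removed 3 of the 10 were called lower in the average, Fosl2 (-0.23), Jun (-0.21) and Jund (-0.30), beside 13.6% of all genes.

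**Figure D4:**
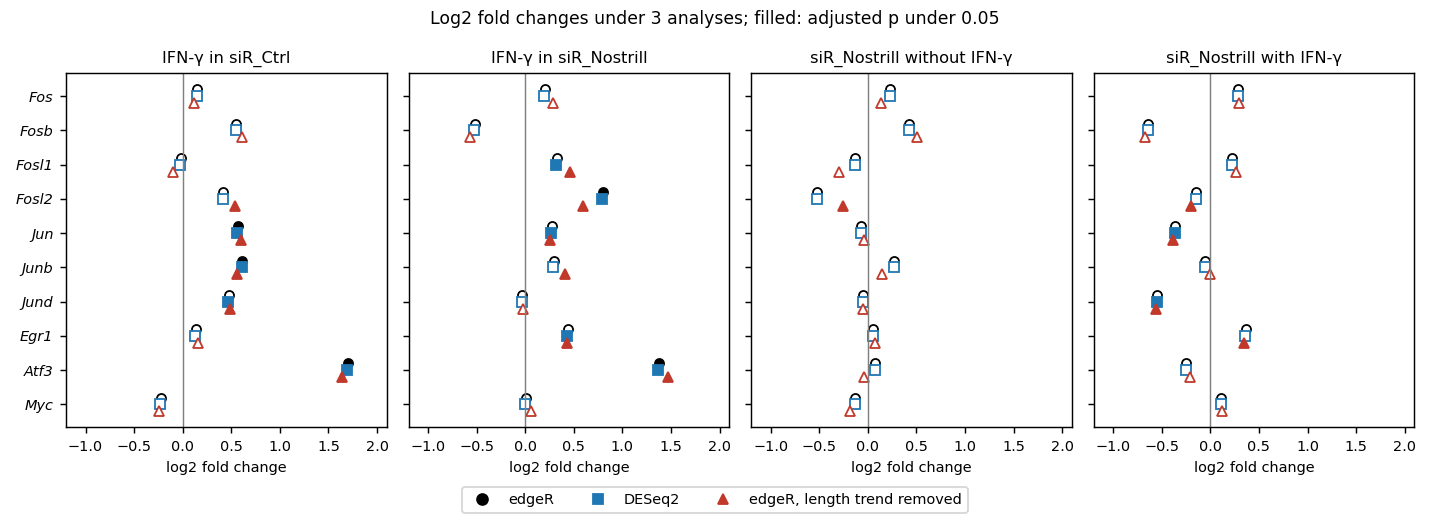
Log2 fold change (horizontal axis) of each of the 10 genes in the 4 comparisons of 2 groups under edgeR, DESeq2 and edgeR with a length trend removed from each library, filled where the adjusted p was under 0.05. The values of Jun and Jund move little between the 3 analyses. In siR_Nostrill against siR_Ctrl cells without IFN-γ, Fosl2 moves from -0.52 to -0.26 and Atf3 from 0.08 to -0.0354 when the length trend is removed.

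Whether the response to IFN-γ differed between the siRNAs was tested as an interaction. None of the 10 genes passed (edgeR), nor did any of the 11900 genes (0% called), and 5 of the 10 had an unadjusted p under 0.05 (Fosb, Fosl1, Jun, Junb and Jund), beside 10.7% of all genes. DESeq2 called 0 of the 10. The interaction was -0.50 for Jund (SE 0.20), -0.32 for Junb (SE 0.14) and -0.29 for Jun (SE 0.11) on the log2 scale, negative for each Jun gene. The value of Fosb was -1.06 (SE 0.38, unadjusted p = 0.0160), the largest in size of the 10 in this fit, at 10 to 27 reads per library. Over the alternatives other than leaving out a library it ranged from -1.18 to -0.21. The -0.21 came with limma on log2(FPKM + 1), where the added 1 exceeds the Fosb level (0.16 to 0.42 FPKM) and compresses its differences. At -0.21 the Fosb value was smaller in size than that of Jund, which ranged from -0.51 to -0.39. Positive values were 0.35 for Fosl1 (SE 0.13), 0.38 for Fosl2 (SE 0.23), 0.31 for Egr1 (SE 0.19), 0.24 for Myc (SE 0.13) and 0.05 for Fos (SE 0.26). The adjusted p of Fosb, Jund, Junb, Jun and Fosl1 was 0.430. The interaction rose with gene length (Spearman coefficient 0.648 across genes), and with the length trend removed it was 0.06 for Fosl2, 0.56 for Fosl1, -0.15 for Junb and -0.17 for Atf3, none of them called. It was -0.34 for Jun, -0.51 for Jund, -1.18 for Fosb and 0.27 for Egr1 in that fit. With limma on log2(FPKM + 1) the values were -0.19 for Jun, -0.24 for Junb and -0.39 for Jund. The part of gene length in these values was not tested beyond that fit. The calls of Jun and Junb with one siRNA and of Fosl2 with the other are therefore not shown to differ between the siRNAs. Atf3 had an interaction of -0.33 (SE 0.19, adjusted p = 0.433).

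The make-up of the Jun and Fos families was compared by summed FPKM, as a description with no test. The 3 Jun genes summed to 211 ± 16.0 FPKM in siR_Ctrl, 296 ± 10.2 in siR_Ctrl + IFN-γ, 222 ± 9.41 in siR_Nostrill and 260 ± 8.20 in siR_Nostrill + IFN-γ cells. Junb made up 46.7% ± 1.64 of this sum in siR_Ctrl, 48.7% ± 1.38 in siR_Ctrl + IFN-γ, 52.5% ± 0.888 in siR_Nostrill and 55.9% ± 0.749 in siR_Nostrill + IFN-γ cells. In the deposited FPKM the Junb share in each siR_Nostrill library, with or without IFN-γ, was above that in each siR_Ctrl library (51.7% to 56.7% against 45.3% to 49.7%). Junb has the shortest transcript of the 3 (effective length 1604 bases, against 2642 for Jund and 2951 for Jun), and with the length trend of each library removed, an analysis added after seeing the data, the Junb share without IFN-γ overlapped between the siRNAs (45.0% to 49.9% in siR_Ctrl and 49.2% to 52.9% in siR_Nostrill cells). With IFN-γ it did not (43.7% to 51.9% in siR_Ctrl + IFN-γ and 56.04% to 56.9% in siR_Nostrill + IFN-γ cells). Jund was 32.8% ± 1.39 of the sum in siR_Ctrl, 30.7% ± 3.23 in siR_Ctrl + IFN-γ, 29.5% ± 1.77 in siR_Nostrill and 25.1% ± 1.27 in siR_Nostrill + IFN-γ cells. Jun lay between 17.01% and 23.1% in all libraries. The 4 Fos genes summed to 112 ± 17.1, 114 ± 16.0, 95.3 ± 3.38 and 129 ± 4.39 FPKM in the same order of groups. Fosl1 held 67.4% to 81.8% of this sum and Fosl2 15.6% to 30.4%, so that Fos and Fosb together were a small remainder in each library. Transcripts of these genes differ in length and in protein yield, and RNA shares are not shares of AP-1 dimers.

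**Figure D5:**
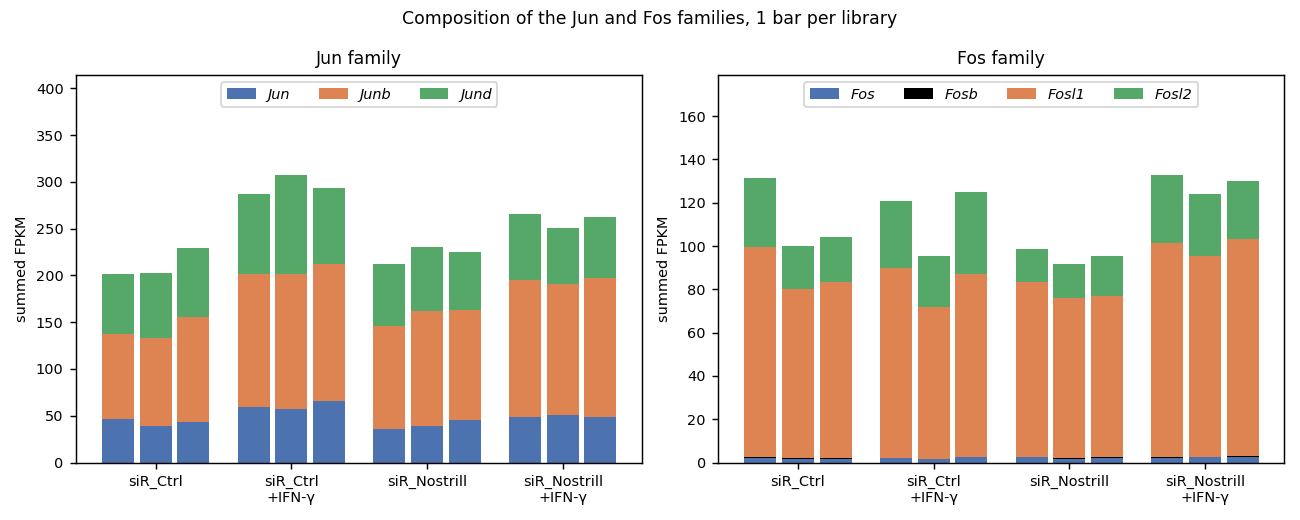
Summed FPKM (vertical axis, from 0) of the 3 Jun genes and of the 4 Fos genes, stacked by gene with 1 bar per library in 4 groups. Fosl1 fills most of each Fos bar, with Fos and Fosb barely visible, and the Jun bars are highest in siR_Ctrl + IFN-γ cells at 296 ± 10.2 FPKM.

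Over the 12 libraries, which share the 4 conditions, their depth and the length trend, Jun and Junb each followed Atf3 (Pearson r = 0.882 and 0.885). Within groups, with group means removed, r was 0.517 for Jun and 0.445 for Junb, so that most of the likeness lay between the groups. Egr1 and Myc moved together within groups (r = 0.831) although r over the 12 libraries was 0.191. Among 10696 genes with an average log2 CPM above 1, the genes whose pattern was most like that of Atf3 were Trafd1 (r = 0.991), Mlkl (0.990) and Socs3 (0.989). For Jun they were Dennd3 (0.958), Lrp10 (0.955) and Hk1 (0.950), for Myc Wfs1 (0.939), Sall2 (0.934) and Gprc5b (0.927), and for Fos Lrrc27 (0.891), Cyp39a1 (0.879) and Cpeb1 (0.852). These are descriptions over 12 libraries, with no test.

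Other genes of these pathways were counted from lists made by function. The counts of each list are read beside the share of all genes called, which was 5.45% for IFN-γ in siR_Ctrl, 6.78% in siR_Nostrill cells and 9.21% averaged over both siRNAs, and 2.16% for siR_Nostrill averaged over both states. Genes named for the averaged comparisons alone were named after their values were seen. Of 21 other AP-1 and basic leucine zipper partners tested, 6 rose and 0 fell with IFN-γ in siR_Ctrl cells, and 4 rose and 0 fell in siR_Nostrill cells, while none passed the test between the siRNAs in either state (0 of 21 by edgeR). Averaged, 6 rose and 0 fell with IFN-γ, and 1 was higher in siR_Nostrill cells, Nfe2l1 (0.31, SE 0.06, adjusted p = 0.0218). Batf2, a Jun partner linked to interferon responses, stood at 0.0533 ± 0.0503 FPKM in siR_Ctrl, 24.9 ± 3.78 in siR_Ctrl + IFN-γ, 0.130 ± 0.0721 in siR_Nostrill and 31.7 ± 0.537 in siR_Nostrill + IFN-γ cells. Crem, a cAMP-responsive factor, rose from 2.36 ± 0.171 to 13.7 ± 0.867 FPKM in siR_Ctrl and from 2.49 ± 0.117 to 12.3 ± 1.20 FPKM in siR_Nostrill cells (log2 fold changes 2.60 and 2.33). Cebpd, a C/EBP factor of the acute phase response, rose with each siRNA (log2 fold changes 2.05, SE 0.15, and 1.43, SE 0.14). Batf3, the Jun partner known from dendritic cells, rose in siR_Ctrl cells (1.91, SE 0.34, adjusted p = 0.0048) and not by the test in siR_Nostrill cells (1.22, SE 0.34, adjusted p = 0.0564), and was called in the average. The list's median log2 fold change was 0.25 in siR_Ctrl and 0.24 in siR_Nostrill cells.

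Of 30 other immediate-early genes tested, 9 rose and 2 fell with IFN-γ in siR_Ctrl cells, and 8 rose and 1 fell in siR_Nostrill cells (median log2 fold changes 0.10 and 0.17). Averaged over both siRNAs 11 rose and 3 fell. Zfp36, whose protein promotes decay of AU-rich mRNAs, had the largest change of them, from 3.59 ± 0.170 to 22.1 ± 2.63 FPKM in siR_Ctrl and from 3.98 ± 0.487 to 27.4 ± 0.716 FPKM in siR_Nostrill cells (log2 fold changes 2.69 and 2.76). Egr2, a paralog of Egr1, rose with each siRNA (1.20, SE 0.18, and 1.03, SE 0.17) beside 0.13 and 0.44 for Egr1. Csrnp1 (1.05 and 1.16) and Rhob, a small GTPase (1.03 and 0.94), also rose with each siRNA. The genes that fell were Egr3 (-0.91, SE 0.18) and Plk2 (-0.52, SE 0.07) in siR_Ctrl cells and Plk2 (-0.31, SE 0.07) in siR_Nostrill cells, named after their values were seen. Without IFN-γ, 0 of the 30 were higher and 2 were lower in siR_Nostrill than in siR_Ctrl cells, namely the matricellular genes Ccn1 (-0.51, SE 0.07, adjusted p = 0.0189) and Ccn2 (-0.60, SE 0.10, adjusted p = 0.0454), also named after their values were seen. With IFN-γ 0 of the 30 were called. Averaged over both states 3 were lower, Ccn1 (-0.42, SE 0.05, adjusted p = 0.0024), Ccn2 (-0.48, SE 0.07, adjusted p = 0.0074) and Rhob (-0.30, SE 0.05, adjusted p = 0.0132), and 1 was higher, Egr2 (0.54, SE 0.12, adjusted p = 0.0477). In the comparison without IFN-γ no gene of the 11900 was called without siR_Ctrl replicate 1, without any one of the 3 siR_Nostrill replicates, or without siR_Nostrill + IFN-γ replicate 2.

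Upstream of these factors, 0 of 27 MAP kinase, serum response factor and cofactor genes rose with IFN-γ in siR_Ctrl cells and 1 fell. Counts this small, here and in the average, are not set apart from the share of all genes. The 1 that fell was Srf, the serum response factor itself (32.7 ± 2.41 to 24.4 ± 1.47 FPKM, log2 fold change -0.36, SE 0.08, adjusted p = 0.0155). In siR_Nostrill cells its value was -0.15 (SE 0.08, adjusted p = 0.260), and 0 of the 27 were called by edgeR. Averaged over both siRNAs 2 rose, Map2k1, which encodes MEK1 (0.27, SE 0.06, adjusted p = 0.0119), and Nras (0.21, SE 0.05, adjusted p = 0.0261), and 2 fell, Map2k6, which encodes MKK6 (-0.38, SE 0.08, adjusted p = 0.0098), and Srf (-0.25, SE 0.05, adjusted p = 0.0095). Mapk3, which encodes ERK1, stood at 123 ± 9.25 FPKM in siR_Ctrl and 127 ± 9.79 FPKM in siR_Ctrl + IFN-γ cells. None of the 27 was called between the siRNAs in either state (0 of 27 by edgeR), and averaged over both states 1 was lower in siR_Nostrill cells, Mapk9, which encodes JNK2 (-0.24, SE 0.05, adjusted p = 0.0449). RNA levels of kinases say nothing of their activity.

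Of 18 AP-1 target genes tested, 4 rose and 0 fell with IFN-γ in siR_Ctrl cells, and 2 rose and 2 fell in siR_Nostrill cells. Averaged over both siRNAs 5 rose and 4 fell. Without IFN-γ 1 of the 18, Mmp14, a membrane-bound matrix metalloproteinase named after its value was seen, was higher in siR_Nostrill than in siR_Ctrl cells (log2 fold change 0.61, SE 0.09, adjusted p = 0.0357), a call lost in each of the leave-one-out fits above that called no gene, and with IFN-γ 0 of the 18 were called (edgeR). Averaged over both states 2 were higher, Mmp14 (0.44, SE 0.07, adjusted p = 0.0083) and the adhesion receptor gene Cd44 (0.27, SE 0.06, adjusted p = 0.0438). Fst, the activin antagonist follistatin, rose from 1.41 ± 0.297 to 38.3 ± 4.26 FPKM in siR_Ctrl and from 0.873 ± 0.192 to 37.1 ± 3.64 FPKM in siR_Nostrill cells. Sphk1, a sphingosine kinase, rose in siR_Ctrl cells (log2 fold change 0.90, SE 0.13, adjusted p = 0.0011) and had 0.25 (SE 0.13, adjusted p = 0.274) in siR_Nostrill cells. Il6 rose with each siRNA (1.58, SE 0.30, and 1.83, SE 0.29) and Cxcl1 in siR_Ctrl cells (0.67, SE 0.17), both named after their values were seen. The 5 that rose in the average were Fst, Sphk1, Il6, Cxcl1 and Hmox1 (0.29, SE 0.08). The growth factor gene Areg (-0.80, SE 0.15, adjusted p = 0.0062) and the plasminogen activator gene Plau (-0.69, SE 0.13, adjusted p = 0.0063) fell in siR_Nostrill cells, and their values in siR_Ctrl cells were -0.13 (SE 0.15) and -0.42 (SE 0.13, adjusted p = 0.0967). Both fell in the average over both siRNAs (Areg -0.46, SE 0.11, adjusted p = 0.0149, and Plau -0.56, SE 0.09, adjusted p = 0.0016), as did Hbegf (-0.29, SE 0.07) and Ccnd1 (-0.19, SE 0.05). Of 13 Egr1 and Atf3 target and partner genes, 2 rose in siR_Ctrl cells and 0 passed in siR_Nostrill cells (edgeR). These were Trib3, a pseudokinase induced by Atf4 and stress (1.16, SE 0.18, adjusted p = 0.0016), and Cdkn1a, the p21 cell cycle inhibitor (0.95, SE 0.16, adjusted p = 0.0027), and the same 2 rose in the average (0.86 and 0.69), with 0 lower.

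Of 27 Myc network and target genes, 0 rose and 1 fell in siR_Ctrl cells, and 0 were called in siR_Nostrill cells (edgeR), while Myc itself was not called in any comparison. Counts this small, here and in the average, are not set apart from the share of all genes. Averaged over both siRNAs 1 rose, Mxd1 (0.43, SE 0.12, adjusted p = 0.0406), and 2 fell, Gnl3 (-0.30, SE 0.08, adjusted p = 0.0369) and Polr1b (-0.29, SE 0.07, adjusted p = 0.0200). The 1 that fell in siR_Ctrl cells was Polr1b, a subunit of RNA polymerase I (9.32 ± 0.864 to 6.69 ± 0.827 FPKM, log2 fold change -0.41, SE 0.10, adjusted p = 0.0304). Ldha, the most abundant of the list, was at 2305 ± 313 FPKM without and 2483 ± 227 FPKM with IFN-γ in siR_Ctrl cells. None of 11 heat shock and handling stress genes was called with IFN-γ with either siRNA (0 of 11 by edgeR), with list medians of -0.11 in siR_Ctrl and -0.30 in siR_Nostrill cells. The most abundant of them, Hspa8, had log2 fold changes of -0.12 (SE 0.11) and -0.30 (SE 0.11), and Hspe1 had 0.25 (SE 0.28) and -0.59 (SE 0.28). Averaged over both siRNAs 0 of the 11 rose and 2 fell, the heat shock genes Hsph1 (-0.35, SE 0.08, adjusted p = 0.0158) and Hspa1b (-0.31, SE 0.07, adjusted p = 0.0214), and Hspa1b, which has a near-identical copy in Hspa1a, was also lower in siR_Nostrill cells averaged over both states (-0.39, SE 0.07, adjusted p = 0.0251). The part of these genes in the results was not tested. Between the siRNAs, 0 of the 13 Egr1 and Atf3 target and partner genes, 0 of the 27 Myc genes and 0 of the 11 heat shock genes were called in either state, and averaged over both states 0 of the 13 and 0 of the 27 were. No gene of these lists was called in the interaction test, as none of the 11900 genes was, so that a call with one siRNA and not with the other is not shown to be a difference between them.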

How the data were processed

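RNA of 12 libraries was enriched with oligo(dT) and sequenced on a DNBSEQ platform. The authors filtered reads with SOAPnuke and aligned them to GRCm38.p6 with HISAT2 and Bowtie2. Which tool counted reads is not given in the sources. The authors deposited an estimated count per gene and library, not normalized, which they made from the aligned reads. The authors also deposited an FPKM (the methods name RPKM) and a TPM per gene, scaled for transcript length and depth. Nostrill is not among the 15002 genes, all mRNA.

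Expected counts were rounded and tested with edgeR 4.0.16 in R 4.3.3 (quasi-likelihood test, TMM, default low-count filter, 1 fit of the 12 libraries, Benjamini-Hochberg over 11900 genes, threshold 0.05). Each SE of a log2 fold change was derived from the edgeR test, as the absolute log2 fold change divided by the square root of its F statistic. Values per library and family shares are the deposited FPKM. Correlations used log2 CPM with a prior count of 2. The statistical scripts were tested on simulated counts that held no gene-length trend, so the tests were not checked under the trend seen in these libraries. Libraries were grouped by the labels, and each counted as 1 replicate, as the study's methods describe biological triplicates. Depth of 17824306 to 19093204 reads leaves Fos (50 to 91 reads) and Fosb (10 to 27) with the widest counting error.

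Alternatives were DESeq2 1.42.0, DESeq2 size factors in edgeR, no low-count filter, a mean CPM of 5 or more, a fit of the compared groups alone, a replicate block, removal of a lowess trend (span 0.3) of gene length from each library, limma 3.58.1 on log2 FPKM with a pseudocount of 1 or 0.1 (genes with a mean FPKM of 0.5 or more, or all genes), and leaving out each library. Named genes were the 10 genes and, from each list, up to 4 called genes with an average log2 CPM above 1 by largest absolute log2 fold change (where fewer than 2 were called, filled up to 2 by mean FPKM), Irf1 as a check of IFN-γ, and the 3 genes most like Fos, Jun, Atf3 and Myc. Genes outside this rule are said to be so. The 10 genes, the lists and the alternatives were chosen with earlier results of these data known. A further check gene is not reported here.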

Additional observations from a re-analysis of the deposited data

How the results depend on the processing

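Of the log2 fold changes of the 10 genes under all alternatives, including each library left out, 1406 kept their direction and side of the threshold, 40 passed it, 4 lost it and 32 changed sign, at values from -0.10 to 0.0478. Sign changes came with the length trend removed (Atf3, siR_Nostrill without IFN-γ, -0.0354, and Fosl1, siR_Nostrill averaged, -0.0147), with limma on log2(FPKM + 1), on log2(FPKM + 0.1) and on all genes (Junb, siR_Nostrill with IFN-γ, 0.0074, 0.0074 and 0.0074; Myc, siR_Nostrill averaged, 0.0029, 0.0032 and 0.0029) and with limma on all genes (Fosb, IFN-γ averaged, -0.0023). With each library left out, ranges crossing 0 were -0.0696 to 0.0478 (Fosl1, IFN-γ in siR_Ctrl), -0.10 to 0.18 (Fos, interaction), -0.20 to 0.0225 (Fosb, siR_Nostrill averaged), -0.0406 to 0.0189 (Myc, siR_Nostrill averaged), -0.0668 to 0.14 (Egr1, siR_Nostrill without IFN-γ), -0.0762 to 0.15 (Fosb, IFN-γ averaged), -0.0928 to 0.0016 (Junb, siR_Nostrill with IFN-γ), -0.0519 to 0.0621 (Myc, IFN-γ in siR_Nostrill), -0.0977 to 0.0320 (Jund, IFN-γ in siR_Nostrill), -0.0146 to 0.20 (Atf3, siR_Nostrill without IFN-γ) and -0.13 to 0.015 (Jund, siR_Nostrill without IFN-γ).

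DESeq2 called 5 of the 10 genes and 1330 of all genes for IFN-γ in siR_Nostrill (edgeR 2 and 807), 265 genes for siR_Nostrill without IFN-γ (26), 2 and 596 for siR_Nostrill with IFN-γ (0 and 51), and 1 and 784 for siR_Nostrill averaged (0 and 257). With the length trend removed the counts were 5 and 1323 for IFN-γ in siR_Ctrl (edgeR 3 and 649), 6 and 2256 for IFN-γ in siR_Nostrill, 1 and 408 for siR_Nostrill without and 4 and 1537 with IFN-γ, 2377 genes for IFN-γ averaged (1096) and 3 and 1617 for siR_Nostrill averaged. Fitting only the groups compared gave 341 genes for IFN-γ in siR_Ctrl, 6 and 1997 for IFN-γ in siR_Nostrill, and 0 genes for siR_Nostrill without and 0 with IFN-γ. For siR_Nostrill with IFN-γ, no low-count filter gave 30 genes, a mean of at least 5 CPM gave 105 and 1 of the 10 (Jun), limma 135 on log2(FPKM + 1), 114 on log2(FPKM + 0.1) and 118 on all genes. No low-count filter gave 168 genes for siR_Nostrill averaged, and limma on all genes 17 for siR_Nostrill without IFN-γ. With each library left out, counts ranged from 1 to 5 of the 10 and 491 to 1138 genes for IFN-γ in siR_Nostrill, 0 to 37 genes for siR_Nostrill without IFN-γ, 0 to 72 with IFN-γ and 83 to 254 averaged. The cause of these moves was not tested.

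Same-numbered libraries deviated together with a correlation over 0.1 in 8 of 18 pairs, and libraries with other numbers in 14 of 36 pairs. Since these deviations also followed gene length, they cannot show whether the replicate numbers pair the samples. The replicate block gave 32 genes for siR_Nostrill with IFN-γ (51 without the block), and 3 of the 10 genes and 943 of all genes for IFN-γ in siR_Nostrill (2 and 807 without). The mean share of Junb in the summed FPKM of the Jun genes moved from 52.5% to 51.06% in siR_Nostrill cells with the length trend removed, and the other 11 mean shares of the Jun genes moved by less than 1 SD.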
